A study of Homo sapiens with 8 samples.

Results

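The early growth response (EGR) factors and their NAB corepressors were followed in A549 cells, an established human lung cancer line, exposed to a plant extract or to a single compound. The group consisted of 6 genes chosen by name, EGR1, EGR2, EGR3, EGR4, NAB1 and NAB2, out of 19056 genes with a named probe on the array, and all 6 had a probe. The extract, EEDS, is an ethanol extract of Descurainia sophia seeds and was given at 1.25, 5 or 20 µg/mL. Helveticoside, a cardiac glycoside of that plant, was given at 3.75, 15 or 60 nM, and each agent had its own vehicle control, so that 8 arrays formed 2 series of 4. Each array held RNA pooled from 3 cultures of 1 cell line and there was 1 array per dose, so a value at a single dose has no replicate error and no test. The study's methods give 24 h of exposure for the arrays, while the treatment protocol in the labels, which also covers a viability assay, gives 48 h.

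EGR1 to EGR4 are zinc-finger transcription factors that bind GC-rich sites, and cells transcribe their genes within minutes of a growth factor, stress or calcium signal without needing new protein. Much of that induction runs through serum response factor (SRF), which binds the CArG box in the EGR1 promoter together with ternary complex factors of the ETS family. NAB1 and NAB2 have no DNA-binding domain of their own. They bind an inhibitory region of EGR1, EGR2 and EGR3, which EGR4 lacks, and repress the transcription driven by these factors, NAB2 in part through the CHD4 subunit of the NuRD chromatin complex. NAB2 is itself a target of the EGR factors, which closes a feedback loop. In lung epithelium EGR1 is known as a gene of injury and stress responses, and cardiac glycosides inhibit the sodium pump.

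The 250 bases before the start sites of 4 members are given below because they hold a CArG box or an EGR site, the letters through which SRF and the EGR factors are known to act. The sequences are from RefSeq (GRCh38.p14), written 5′ to 3′ on the strand of the gene, and capitals mark every CArG box and every EGR site GCGNGGGCG on either strand. The table of promoters had an entry for 5 of the 6 members. The EGR1 window is chr5:138465229-138465478 on the plus strand, the EGR2 window is chr10:62816367-62816616 on the minus strand before the third of its listed starts, the NAB2 window is chr12:57088864-57089113 on the plus strand and the NAB1 window is chr2:190648645-190648894 on the plus strand before its first listed start.
EGR1: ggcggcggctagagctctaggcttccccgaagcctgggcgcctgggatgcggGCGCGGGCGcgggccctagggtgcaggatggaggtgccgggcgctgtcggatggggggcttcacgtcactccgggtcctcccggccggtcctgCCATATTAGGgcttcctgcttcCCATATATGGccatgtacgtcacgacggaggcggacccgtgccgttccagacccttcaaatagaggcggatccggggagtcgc
EGR2: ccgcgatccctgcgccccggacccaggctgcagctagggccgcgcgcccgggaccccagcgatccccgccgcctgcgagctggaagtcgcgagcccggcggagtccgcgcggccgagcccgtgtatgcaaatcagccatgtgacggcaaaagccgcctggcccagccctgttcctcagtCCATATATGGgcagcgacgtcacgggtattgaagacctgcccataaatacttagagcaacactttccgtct
NAB2: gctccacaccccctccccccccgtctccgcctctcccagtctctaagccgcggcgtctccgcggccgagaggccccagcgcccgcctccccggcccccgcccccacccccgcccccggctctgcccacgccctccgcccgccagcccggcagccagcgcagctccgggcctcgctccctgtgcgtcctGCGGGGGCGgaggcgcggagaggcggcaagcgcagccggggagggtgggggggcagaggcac
NAB1: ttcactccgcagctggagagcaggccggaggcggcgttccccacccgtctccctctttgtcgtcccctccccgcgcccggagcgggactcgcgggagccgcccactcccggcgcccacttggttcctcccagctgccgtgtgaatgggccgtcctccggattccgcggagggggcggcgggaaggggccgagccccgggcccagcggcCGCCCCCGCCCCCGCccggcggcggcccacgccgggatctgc

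The EGR1 window held 2 CArG boxes, at −105 to −96 and −83 to −74 from the start, and 1 EGR site at −198 to −190. Of 35116 promoter windows of this length, 1.159% held a CArG box and 0.0313% held 2 or more. The window before the third EGR2 start held 1 CArG box, at −71 to −62, and the windows before its other starts held none. EGR1, EGR4 and the third EGR2 start each had 2 matches to TGACG, the core of the cAMP response element, which 21.2% of windows held and 4.76% held 2 times or more. The NAB2 window held 1 EGR site, at −62 to −54, and 4 GC boxes (GGGCGG), of which 1 overlapped the EGR site. NAB1 had 2 EGR sites before its first start and 3 before its second, in windows that overlap and share 2 of the sites, and 0 before the third. At least 1 EGR site was in 8.42% of all windows. The GC content was 81.2% in the NAB2 window and 78% and 80% in the first 2 NAB1 windows, against a median of 58% over all windows. GC boxes were in 42.6% of windows. The 1 form of ETS site searched, CCGGAA, was in 14.5% of windows and in none of the 9 windows of the members. Other forms were not searched, so the windows may still hold sites for ETS factors. All motifs were searched on both strands, and a match describes the letters in the window and not a bound site.

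**Figure D1:**
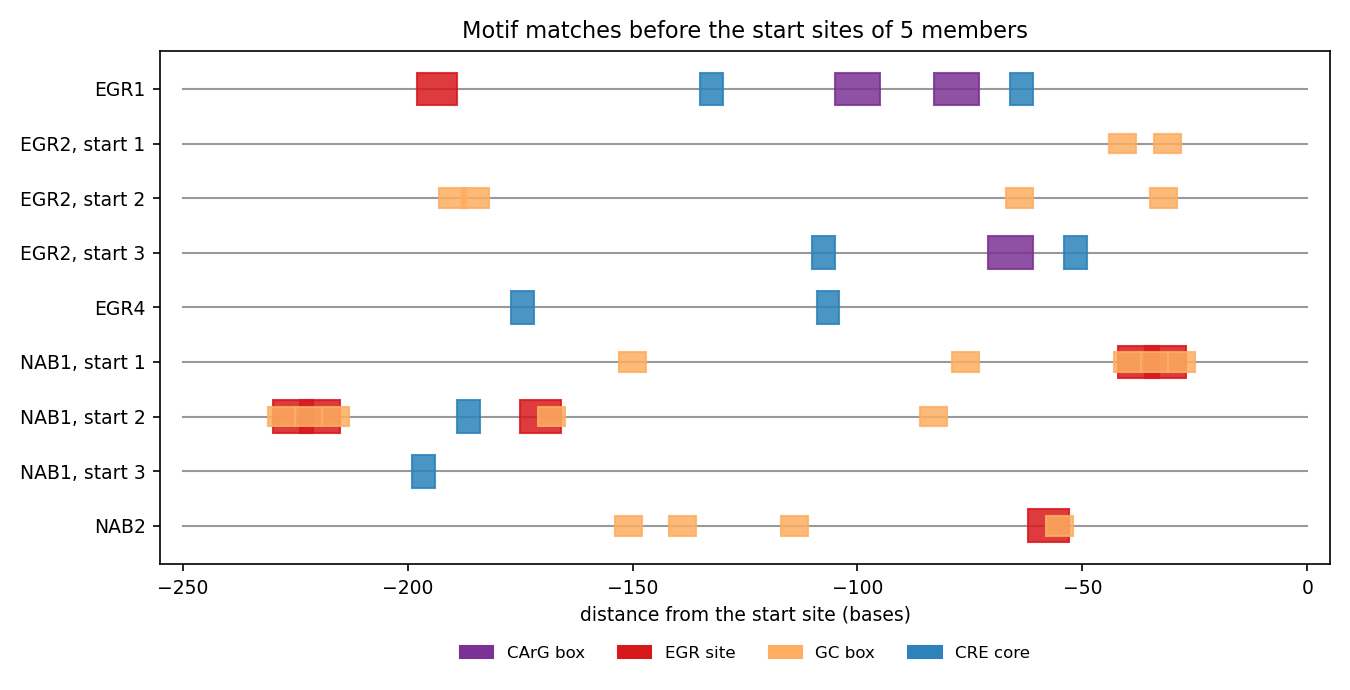
Position of motif matches in the 250 bases before each listed start of 5 members, with the distance from the start in bases on the x axis and 1 row per start. The 2 CArG boxes of EGR1 lie between −105 and −74, and the EGR sites of NAB1 and NAB2 overlap GC boxes.

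EGR1, the best known of the factors, rose with the dose of EEDS and had the largest ratio of all measured genes at the top dose of both agents. Its level, the log2 of the quantile-normalized signal, was 6.88 on the EEDS control array and 7.85, 10.73 and 16.82 at 1.25, 5 and 20 µg/mL. In the helveticoside series it was 6.06 on the control and 8.10, 9.18 and 13.74 at 3.75, 15 and 60 nM. The level was higher at each dose than at the dose before it in both series, and the spot was well above background, by the scanner software's own call, on all 8 arrays. The EGR1 gene lies at chr5:138465479-138469303 of GRCh38.p14, the build of all positions given here.

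As a log2 ratio to its own control, EGR1 was 0.97, 3.85 and 9.94 higher at the rising doses of EEDS, the last of which is 982-fold. Among the genes whose treated and control spots were both well above background, it ranked 546 of 13306 at 1.25 µg/mL, 4 of 13138 at 5 µg/mL and 1 of 12969 at 20 µg/mL. The ratios with helveticoside were 2.04, 3.12 and 7.68, the last 206-fold, with ranks of 9 of 11868, 8 of 12150 and 1 of 11934. Before normalization the processed signal of its spot was 113 on the EEDS control and 79.1 on the helveticoside control, with a scanner error of 12.1 and 14, and it reached 133000 and 14300 at the top doses with an error of 10% of the signal. Across the alternatives the log2 ratio at the top dose was 9.31 to 10.8 with EEDS and 6.28 to 7.68 with helveticoside. At the lowest doses the order of the agents depended on the values used. EGR1 was 1.45 higher at 1.25 µg/mL EEDS and 1.17 at 3.75 nM helveticoside in the processed values that were deposited, and 1.79 and 1.22 against the control of the other series.

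Across all 8 arrays, the slope of EGR1 per dose step in EEDS was 3.27 on the log2 scale (SE 0.58, 95% interval 1.82 to 4.72), with an adjusted p of 0.0255 from limma over 19056 genes. This was the 1 called slope among the 6 members, and 7.27% of all genes had a called rise with EEDS. The helveticoside slope of EGR1 was 2.41 (SE 0.58, 0.96 to 3.86), with an adjusted p of 0.0562 from limma, and none of the 6 members had a called slope there, against 5.47% of all genes. The arrays around each trend line stood in for replicates in this fit, with 4 residual degrees of freedom. The EEDS call was lost on leaving out any of 5 arrays. The slope was 4.49 (adjusted p 0.11 by limma) without the EEDS control, 3.11 (0.0508) without 1.25 µg/mL and 1.92 (0.183) without 20 µg/mL. It was 3.27 without helveticoside 3.75 nM (0.0522) or 15 nM (0.0538). Over all 19056 genes, 1385 were called rising with EEDS in the full fit. Without the EEDS control or 20 µg/mL the number was 0. It was 828 without 1.25 µg/mL, 1017 without helveticoside 3.75 nM and 458 without 15 nM. The helveticoside slope passed the threshold under 6 other ways of processing, with adjusted p values of 0.0120 to 0.0383 by limma, and on leaving out the EEDS control (0.0498) or 20 µg/mL EEDS (0.0403).

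**Figure D2:**
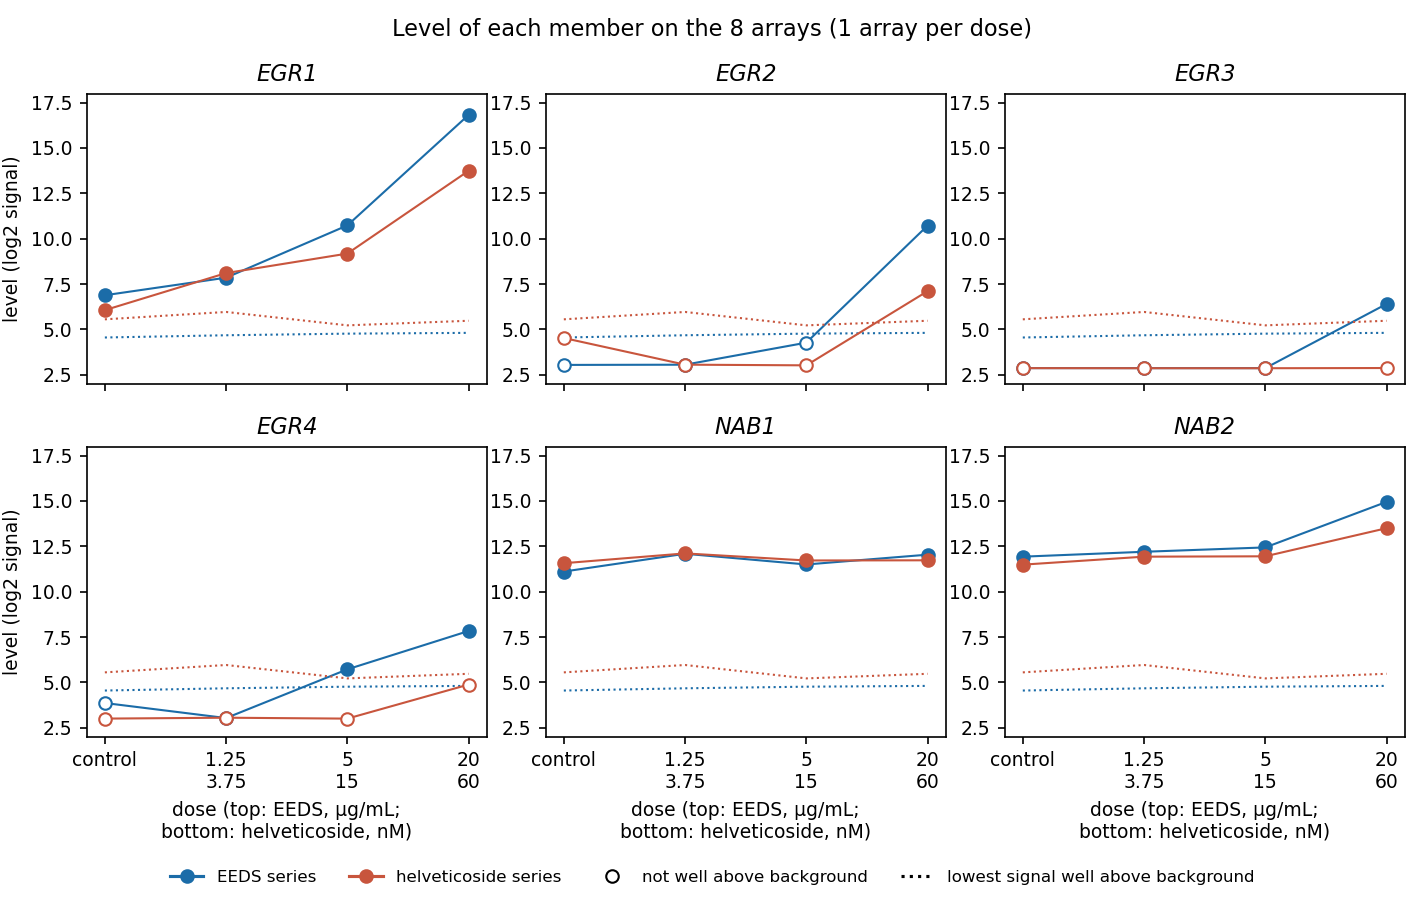
Level of each member (log2 of the normalized signal, y axis) on the control and at 3 doses of EEDS (blue, µg/mL) and helveticoside (red, nM), 1 array per point. Open points were not well above background and dotted lines give the lowest signal that was. EGR1 is highest at the top dose of each series. EGR2 is well above background only at the top dose of each agent, EGR3 only at 20 µg/mL EEDS and EGR4 only at 5 and 20 µg/mL EEDS.

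EGR2, known for its role in peripheral myelin and in lymphocytes (chr10:62811996-62819167), was at background on both controls and well above it only at the top dose of each agent. Its level was 3.04 on the EEDS control and 3.05, 4.27 and 10.72 at the rising doses. In the helveticoside series it was 4.52 on the control and 3.05, 3.02 and 7.11 at the rising doses. At background means throughout that the scanner software did not call the signal well above it. By the looser limit of 1.4 times the local background, EGR2 and EGR4 passed on all 8 arrays and EGR3 on 7. Where the control was not well above background, the treated level was set against the higher of the control's own value and the lowest signal well above background on that array, which gives a bound. By that bound EGR2 was at least 71.9-fold higher at 20 µg/mL EEDS, at log2 6.17, and at least 2.94-fold higher at 60 nM helveticoside, at log2 1.55. Its slopes of 2.43 with EEDS (SE 0.84) and 0.77 with helveticoside (SE 0.84) had adjusted p values of 0.11 and 0.657 by limma, and they rest largely on signals at background, where the scanner's error was up to 100% of the signal. The bound at the top dose fell to 4.34 with EEDS with no background subtracted, and with helveticoside to 0.96, just under 2-fold, in the deposited processed values.

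EGR3, which acts in muscle spindles and T cells (chromosome 8, position 22687659 to 22693480), was well above background on 1 array, at 20 µg/mL EEDS. Its level was 6.40 there and 2.86 or 2.87 on the other 7 arrays, and no order can be read among these 7 values at background. The bound was at least 3.60-fold higher than the EEDS control (log2 1.85). At 60 nM helveticoside, where the lowest signal well above background was 5.47, its level was 2.87, and no ratio can be given. The slope of EGR3 was 1.06 (adjusted p 0.113) with EEDS and 0.0017 (adjusted p 0.9995) with helveticoside by limma.

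EGR4, the factor without the NAB-binding region (chr2:73290929-73293548), was well above background at 5 and 20 µg/mL EEDS only. Its level was 3.86 on the EEDS control, 3.03 at 1.25 µg/mL, 5.72 at 5 µg/mL and 7.83 at 20 µg/mL. In the helveticoside series it was 3.01 on the control and 3.05, 3.0 and 4.88 at the rising doses, none of them well above background. It was at least 2.25-fold higher at 5 µg/mL and at least 9.72-fold higher at 20 µg/mL than the EEDS control. Between these 2 doses, both measured, the level was 4.33-fold higher at the upper one. Its EEDS slope was 1.46 (SE 0.39) with an adjusted p of 0.0608 by limma, and its helveticoside slope was 0.56 (SE 0.39) with an adjusted p of 0.43. The lowest signal well above background was 4.55 to 4.81 on the EEDS arrays and 5.22 to 5.96 on the helveticoside arrays, so a weak signal had to be higher to be called in the helveticoside series. At 5 µg/mL EEDS the EGR4 bound was under 2-fold with no background subtracted (log2 0.35), with normexp correction (0.31), in the deposited processed values (0.57) and against the other control (0.17).

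The corepressor NAB2 was higher at the top dose of both agents, and most of its change fell in the last dose step. Its level was 11.93 on the EEDS control and 12.20, 12.44 and 14.95 at the rising doses, and 11.49 on the helveticoside control and 11.93, 11.95 and 13.50 at the rising doses. The log2 ratio was 0.27, 0.51 and 3.01 with EEDS, the last 8.08-fold, and 0.44, 0.46 and 2.01 with helveticoside, the last 4.02-fold. At the top doses NAB2 ranked 105 of 12969 and 249 of 11934 measured genes. The slope was 0.93 with EEDS (SE 0.27, adjusted p 0.0756) and 0.60 with helveticoside (SE 0.27, adjusted p 0.211) by limma, so neither passed the threshold in this fit. The EEDS slope passed under 6 alternatives, at 0.86 to 0.97 with adjusted p values of 0.0152 to 0.0303 by limma, and without the array at 5 µg/mL, at 1.06 (0.0449). NAB2 lies at chr12:57089114-57095476.

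NAB1, the other corepressor, showed no ordered change with dose. Its level was 11.11 on the EEDS control and 12.09, 11.50 and 12.04 at the rising doses, and 11.57 on the helveticoside control and 12.11, 11.72 and 11.73 at the rising doses. The lowest dose gave the highest level in both series, although in the EEDS series the top dose was the higher with the signal as scanned (log2 ratio 0.999 against 0.986), with normexp correction (0.999 against 0.988) and with scaling to the 75th percentile (1.12 against 0.978). A second probe of the gene gave 11.02, 11.86, 11.24 and 11.65 in the EEDS series and 10.98, 11.31, 11.00 and 11.22 in the helveticoside series, and it too was highest at the lowest dose. The log2 ratios were 0.98, 0.39 and 0.93 with EEDS and 0.55, 0.16 and 0.16 with helveticoside. The slopes were 0.22 with EEDS (−0.16 to 0.59, adjusted p 0.385) and 0.01 with helveticoside (−0.36 to 0.38, adjusted p 0.998) by limma. NAB1 lies at chr2:190648895-190692766.

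The corepressors parted at the top doses. The log2 ratio of NAB2 minus that of NAB1 was −0.71, 0.12 and 2.09 at the rising doses of EEDS and −0.11, 0.31 and 1.84 at those of helveticoside. The log2 ratio of EGR1 minus that of NAB2 was 0.70, 3.34 and 6.93 with EEDS and 1.60, 2.65 and 5.68 with helveticoside, so the gap between the factor and its corepressor was wider at each higher dose. These are differences of ratios from single arrays and have no test.

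Of the total log2 change of EGR1 from control to top dose, 61.3% fell in the last step with EEDS and 59.4% with helveticoside. For NAB2 the share was 83.1% and 76.9%. Among all genes more than 2-fold higher at the top dose and well above background on all arrays of the series, the median share was 43.1% with EEDS (1930 genes) and 41.4% with helveticoside (1258 genes). A share at or above that of NAB2 was found in 8.40% and 6.05% of these genes, and one at or above that of EGR1 in 24.0% and 19.7%. With EEDS the middle step held 28.9% of the EGR1 change and the first 9.75%, while with helveticoside the first step held 26.6% and the middle step 14%. This contrast of the first steps depends on the control arrays and the processing. The first step of EGR1 was 0.97 with EEDS and 2.04 with helveticoside in the values reported, but 1.45 and 1.17 in the deposited processed values.

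Counted by dose, the members more than 2-fold higher than their control were 0 of 3 measured or bounded at 1.25 µg/mL EEDS (all genes, 4.28%), 2 of 4 at 5 µg/mL (8.05%) and 5 of 6 at 20 µg/mL (15.4%). With helveticoside they were 1 of 3 at 3.75 nM (1.88%), 1 of 3 at 15 nM (6.15%) and 3 of 4 at 60 nM (11.5%). The single member at the lower doses of helveticoside was EGR1, and those at 5 µg/mL EEDS were EGR1 and EGR4. No member was more than 2-fold lower at any dose. EGR1 at 1.25 µg/mL was 1.96-fold higher and NAB1 1.98-fold, both just under the limit. Members at background on both arrays were left out of the denominators, and a member that left the background only in the treated cells could enter in 1 direction alone. The 6 genes were also chosen with earlier results of these data known, so their counts beside the shares of all genes are no test.

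**Figure D3:**
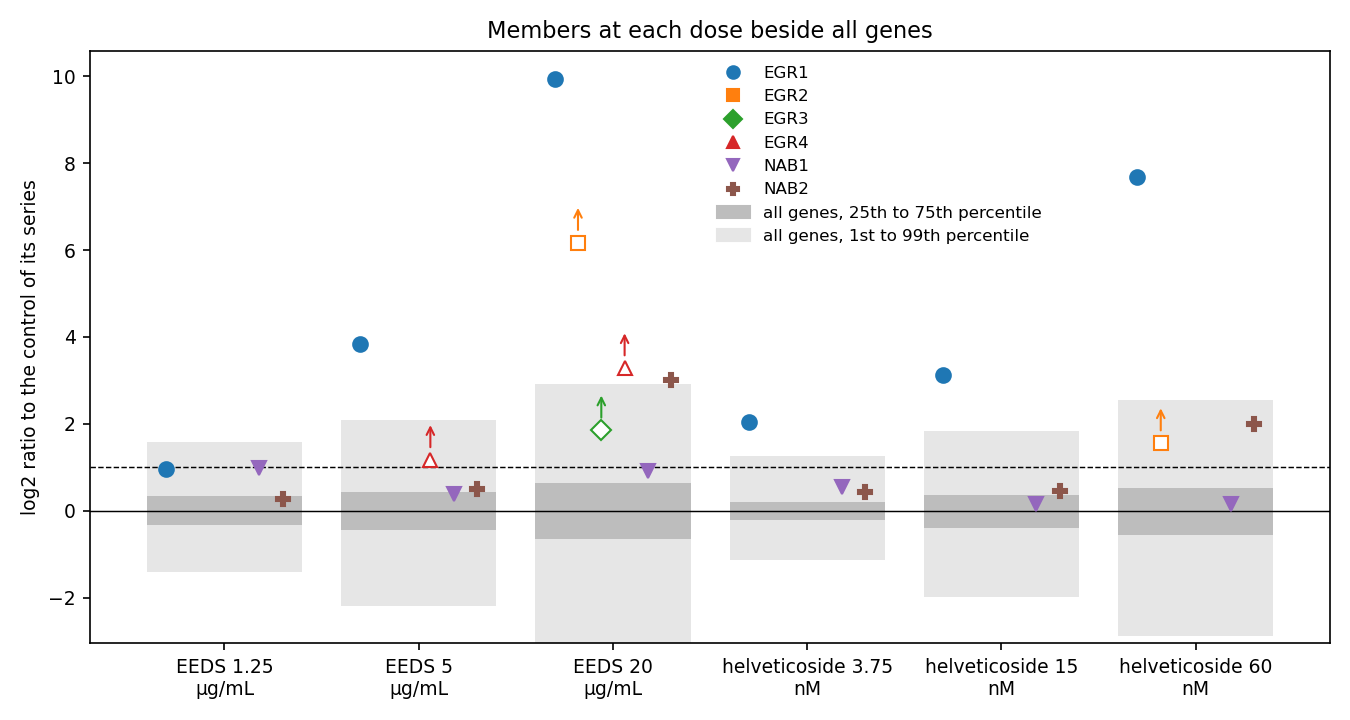
Log2 ratio of each member to the control of its series (y axis) at the 6 doses, with the middle 50% of all genes in dark grey and the 1st to 99th percentile in light grey; open points with arrows are lower bounds and the dashed line is 2-fold. EGR1 lies above the 99th percentile at 5 of the 6 doses, the exception being 1.25 µg/mL EEDS, and NAB1 stays below the dashed line at all 6.

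The difference of the slopes, helveticoside minus EEDS, was below 0 for all 6 members, but no interval excluded 0. It was −0.86 for EGR1 (−2.91 to 1.20), −1.65 for EGR2 (−4.62 to 1.31), −1.06 for EGR3 (−2.37 to 0.25), −0.90 for EGR4 (−2.27 to 0.47), −0.21 for NAB1 (−0.74 to 0.32) and −0.32 for NAB2 (−1.28 to 0.64). The adjusted p was 1 for each by limma. Over all 19056 genes limma called 0 slope differences, and 525 had an unadjusted p under 0.05. The dose steps of the agents are in different units, so the slopes compare steps of each series and not equal exposures. The intervals are wide enough to hold differences of more than 1 log2 unit per step for the 4 EGR genes and NAB2, and of up to 0.74 for NAB1, so the data do not show that the agents act alike on any member.

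**Figure D4:**
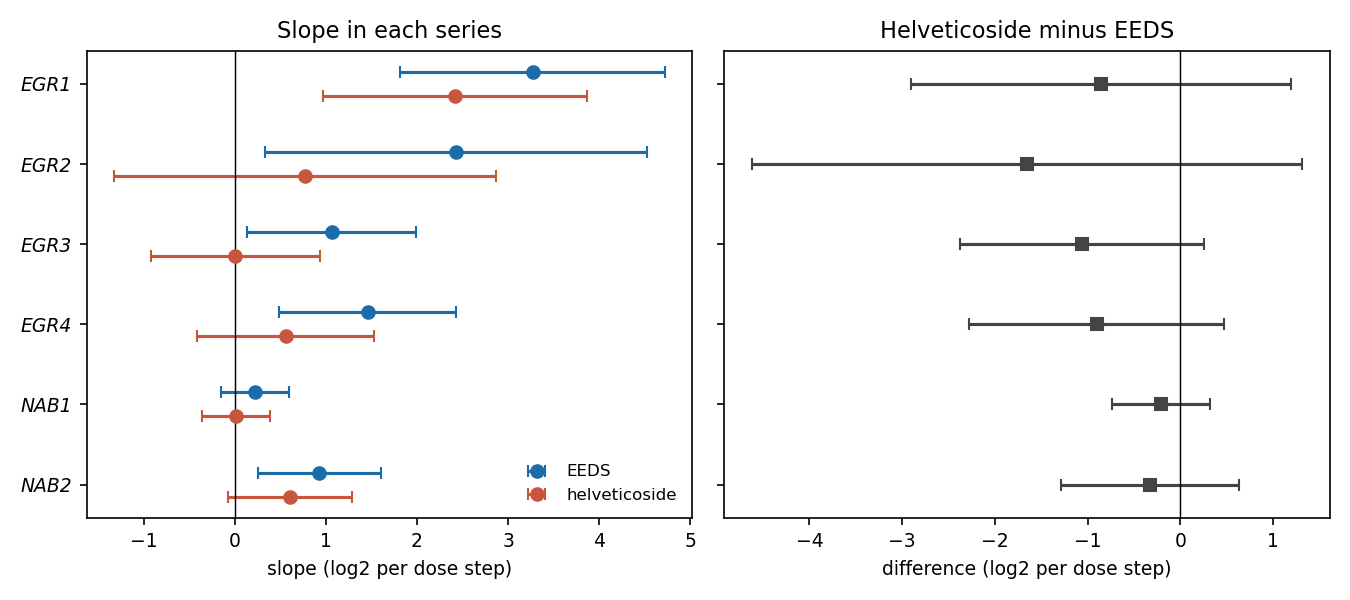
Limma slope per dose step with its 95% interval for each member (left; x axis in log2 units, EEDS blue, helveticoside red) and the difference of the slopes (right). The EGR1 intervals of both agents lie above 0, as do the EEDS intervals of EGR2, EGR3, EGR4 and NAB2. Each interval of the difference includes 0. The intervals are not adjusted for the number of genes, and only the EEDS slope of EGR1 was called.

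EGR1 was 0.82 lower on the helveticoside control than on the EEDS control on the log2 scale, NAB2 was 0.44 lower and NAB1 was 0.45 higher, while the SD of this difference over 12389 genes was 0.50, so the EGR1 difference exceeded 1 SD and those of the corepressors did not. Set against the other control, EGR1 would be 10.8 higher at 20 µg/mL EEDS and 6.86 higher at 60 nM helveticoside, and EGR3 at 20 µg/mL EEDS would be less than 2-fold higher at log2 0.85. Probe spots numbered 43118 per array with a median signal of 182 to 278 over a local background of 27 to 34, and 56.9% to 66.9% of them were well above background. No spot was saturated, each member's probe had 1 spot per array, and none of those spots was an outlier.

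The regulators known to act on EGR1 were read at the top doses, where EGR1 had the largest ratio of all measured genes. Of SRF and its partners, 3 of 7 were more than 2-fold higher at the top dose of each agent and 1 was more than 2-fold lower. Of all genes, 15.4% with EEDS and 11.5% with helveticoside were higher and 16.8% and 14.2% lower. The 7 had 2 called rises with EEDS and 1 with helveticoside, against 7.27% and 5.47% of all genes. They had 1 called fall with each, against 7.90% and 5.82%. The fall was that of MRTFB, a coactivator of SRF, at log2 −1.07 and −1.33 at the top doses. ELK3, a ternary complex factor, rose with both agents, to 2.15 and 2.39 (adjusted p 0.0134 and 0.0167 by limma). SRF was 2.02 and 2.29 higher at the top doses, with adjusted p values of 0.065 and 0.0514 by limma. The median log2 ratio of the 7 genes was 0.98 and 0.70, against −0.004 and 0.03 over all genes measured or bounded.

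The 13 other immediate early genes of SRF were all more than 2-fold higher at the top dose of both agents. The slope was called rising for 10 of them with EEDS and for 7 with helveticoside, and the median log2 ratio was 2.90 and 2.54. FOSB, an AP-1 subunit, was 8.24 and 5.13 higher at the top doses, and its slope was called with EEDS (adjusted p 0.0185) and not with helveticoside (0.0524) by limma. FOS, its close relative, was 5.12 and 2.58 higher with slopes that were not called (adjusted p 0.111 and 0.476 by limma). FOSL1, at 4.51 and 3.98, and the matricellular genes CCN1, at 4.17 and 3.97, and CCN2, at 3.12 and 3.14, rose with both agents. Over all genes, 15.4% with EEDS and 11.5% with helveticoside were more than 2-fold higher at the top dose. A called rising slope was found for 7.27% and 5.47% of all genes. All genes more than 2-fold lower made up 16.8% and 14.2% at the top doses, and genes with a called falling slope 7.90% with EEDS and 5.82% with helveticoside. This list was drawn up with earlier results of these data known.

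Of 31 genes known as EGR1 targets, 29 could be measured or bounded at 20 µg/mL EEDS and 28 at 60 nM helveticoside. More than 2-fold higher were 17 (58.6%) and 12 (42.9%) of them, against 15.4% and 11.5% of all genes. More than 2-fold lower were 3 (10.3%) and 4 (14.3%), against 16.8% and 14.2% of all genes. The slope was called rising for 11 of the 31 with EEDS and 7 with helveticoside, against 7.27% and 5.47% of all genes. It was called falling for 2 with each, against 7.90% and 5.82%. The median log2 ratio of the list was 1.20 with EEDS and 0.60 with helveticoside. The list was drawn up with earlier results of these data known and its genes answer to many other factors.

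Among the targets with the largest changes, ATF3, a stress-response factor, was 1.78, 3.54 and 7.02 higher at the rising doses of EEDS and 0.86, 3.37 and 5.40 higher at those of helveticoside. Its 4 probes differed, with top-dose ratios from 0.92 to 7.02 for EEDS and from 0.21 to 6.04 for helveticoside. GADD45A, a growth arrest and DNA damage gene, reached 4.21 and 3.53, CDKN1A, the cell cycle inhibitor p21, reached 3.23 and 2.53, and GDF15, a stress cytokine, reached 2.76 and 2.39. At the lowest dose of helveticoside, where EGR1 was 2.04 higher, these 4 genes had ratios of −0.16 to 0.86. At the lowest dose of EEDS, where EGR1 was 0.97 higher, they had ratios of 0.58 to 1.78. In the deposited processed values EGR1 was 1.17 higher at that dose of helveticoside and 1.45 at that of EEDS. Whether these genes follow EGR1 was not tested. The called falls with both agents were those of CD44, a hyaluronan receptor (log2 −1.37 and −1.14), and BCL2L11, the proapoptotic BIM (−1.89 and −1.86), which were chosen after their values were seen.

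**Figure D5:**
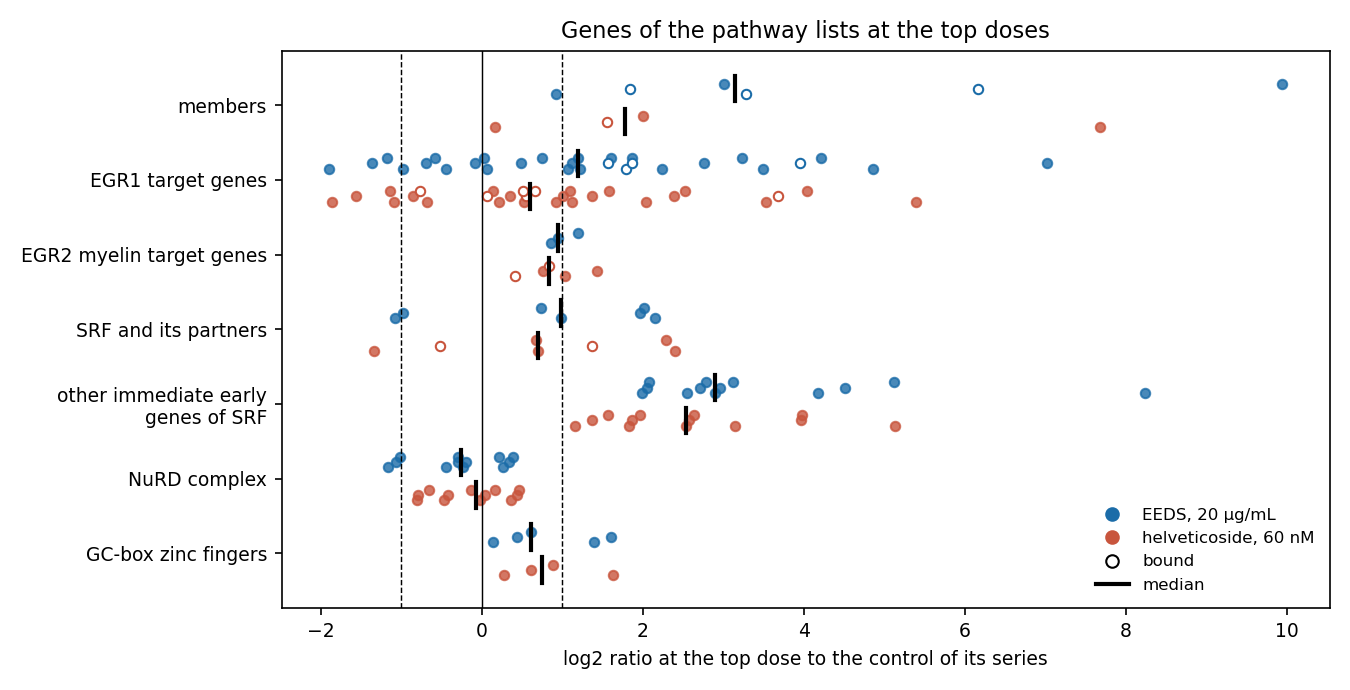
Log2 ratio at the top dose to the control of its series (x axis) for the genes of each list, EEDS in blue and helveticoside in red, with open points for bounds, black bars for medians and dashed lines at 2-fold. The 13 other immediate early genes of SRF all lie beyond the upper dashed line. Of the 12 NuRD genes, 0 lie beyond the upper line and 3 lie beyond the lower line with EEDS, where 16.8% of all genes were more than 2-fold lower.

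The myelin genes known as targets of EGR2 could be compared for 3 of 6 genes at 20 µg/mL EEDS and 5 of 6 at 60 nM helveticoside. MBP, a myelin protein, rose with both agents, at 1.20 and 1.43 at the top doses (adjusted p 0.0413 and 0.0279 by limma), and its 3 probes, of which 1 was at background on 7 arrays, ranged from 0.02 to 3.28 and from 0.03 to 4.92. PMP22 was 0.86 and 1.03 higher and MAG was 0.95 and 0.77 higher, with slopes that were not called. For the NuRD complex, through which NAB2 can repress, 12 of 13 genes had a named probe and 0 of them were more than 2-fold higher with either agent. With EEDS 3 were more than 2-fold lower, RBBP4 (log2 −1.17), RBBP7 (−1.07) and MTA3 (−1.01), and with helveticoside 0. Of all genes, 16.8% with EEDS and 14.2% with helveticoside were more than 2-fold lower, and 15.4% and 11.5% were higher. The other 3 probes of RBBP4 gave −0.30 to −0.59 with EEDS. RBBP7, a histone-binding subunit, was the 1 called fall of this list with each agent (adjusted p 0.0203 and 0.0356 by limma). Called falls made up 7.90% and 5.82% of all genes. CHD4 was at −0.20 and −0.42.

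Of the other zinc fingers that bind GC-rich sites, SP2 was 1.61 and 1.63 higher at the top doses and its slope was called with both agents (adjusted p 0.0308 and 0.036 by limma). SP4 was 1.4 and 0.61 higher, SP1 0.44 and 0.88 and SP3 0.61 and 0.27. SP1 was also called rising with helveticoside (adjusted p 0.0223). More than 2-fold higher were 2 of 5 genes with EEDS and 1 of 4 with helveticoside, against 15.4% and 11.5% of all genes.

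The genes whose 6 log2 ratios were most like those of EGR1, out of 12293 well above background at both top doses, were FOSB (root-mean-square difference of 1.61), ATF3 (1.63), CXCL8 (2.15), CD274 (2.21) and LTB (2.23). LTB was well above background on 5 of the 8 arrays and FOSB, CXCL8 and CD274 on 7, so part of their ratios rest on signals at background. Since EGR1 had the largest ratio at both top doses, and the measure grows with the size of the ratios, the distances to EGR1 and to NAB2 cannot be set against each other. Those nearest to NAB2 were RELT (0.21), RSC1A1 (0.22), NUAK2 (0.23), MB21D2 (0.25) and KLF6 (0.28). RELT, a receptor of the TNF family, was 0.34, 0.82 and 2.79 higher with EEDS and 0.40, 0.49 and 1.69 with helveticoside, and like NAB2 it changed mostly in the last step. KLF6, a zinc finger of the GC-box type, was at −0.01, 0.52 and 2.76 with EEDS and −0.09, 0.36 and 1.78 with helveticoside. The likeness describes 6 ratios from 8 arrays that share 2 controls.

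The epithelial label of the cells was checked on marker genes. All 5 epithelial markers were well above background on all 8 arrays, and their summed signal was 496300 on the EEDS control and 314300 at 20 µg/mL, and 408400 on the helveticoside control and 262600 at 60 nM. Of these, 4 had a called falling slope with EEDS and 3 with helveticoside, against 7.90% and 5.82% of all genes. CDH1, the cadherin of epithelial junctions, was at log2 −2.71 at both top doses. All arrays held RNA of 1 cell line, and bulk RNA does not show whether all its cells changed alike. Well above background on each array were 2 or 3 of 4 leukocyte markers (PTPRC and CD14 on all 8), 1 of 3 endothelial markers (CDH5) and 1 of 4 fibroblast markers (COL1A1), while CD3E, PECAM1, VWF, COL1A2, DCN and PDGFRB were on none. The summed signal was 761 to 3682 for the leukocyte list, 137 to 234 for the endothelial list and 194 to 600 for the fibroblast list, and it was not highest at a top dose for the leukocyte list. The part of these shifts in the values of the EGR and NAB genes was not tested.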

How the data were processed

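Pooled RNA of A549 cells was hybridized to 8 one-colour Agilent whole human genome arrays, which were grouped by the agent and dose in their labels. The authors deposited intensity values per spot from the scanner software (processed signal with its error, median signal, local background, and other columns of 0 or 1 flags), without slide or scan date. A second deposited table holds intensity values that the authors had quantile-normalized within each series, with 2427 blanks, and was used as an alternative. The number of arrays limits the precision.

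Here, processed signals of spots that were neither controls nor outliers were averaged by probe, quantile-normalized across the 8 arrays and log2-transformed. Of 34127 probes, 22 had outlier spots only and 24812 matched 1 symbol (GRCh38.p14 names). For the 4797 genes with several probes, the brightest probe on average was taken. Each of the 19056 genes reached 1.4 times its local background on 1 array or more. Trends over dose steps (0 to 3), each series having its own intercept and slope, were fitted in R 4.3.3 by limma 3.58.1 with trended, robust variance estimation (statmod 1.5.0). P-values were adjusted by Benjamini-Hochberg over all genes, with a threshold of 0.05. On simulated data for the EEDS slope over 19056 genes, 63% of slopes of 1 and 27% of slopes of 0.5 were found, with 4 false calls. In that simulation 200 genes changed, along straight lines with the same slope in both series and with independent normal noise. The real changes are more numerous and often not straight, so these figures do not give the error rates of the real fit. Python 3.11.15, numpy 2.4.6 and pandas 2.3.3 served for the rest.

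The members and lists were chosen with earlier results of these data known. The genes named are the members, up to 5 genes per list with the largest mean absolute top-dose log2 ratio among those well above background on both controls and both top doses, and the 5 genes nearest to EGR1 and to NAB2. The markers of cell types are a separate list, and CHD4, CD44 and BCL2L11 fall outside this rule. The values of 1 gene that the rule names are not reported here. The alternatives are listed in the part on the processing.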

Additional observations from a re-analysis of the deposited data

How the results depend on the processing

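The EGR1, EGR2, EGR4, NAB1 and NAB2 slopes kept their direction in both agents under each alternative that used all 8 arrays. The number of members with a called rise with EEDS, 1 in the fit reported, was 5 with the signal as scanned, 4 with normexp correction (offset 50), 3 with scaling to the 75th percentile, 4 with the deposited processed values, 2 with genes well above background on at least 4 arrays, which leaves out EGR2, EGR3 and EGR4, and 3 with 1 intercept for both series. With helveticoside, 0 in the fit reported, it was 1 under each of these 6. In the same order, limma called 1662, 1674, 1800, 1976, 1807 and 2740 genes rising with EEDS. With helveticoside it called 1203, 1232, 1248, 787, 1449 and 1490. The deposited values tested 18203 genes, the filter on background 13217 and the others 19056. In that order of alternatives the EEDS slope of NAB2 was 0.917, 0.917, 0.965, 0.856, 0.928 and 0.967, and the helveticoside slope of EGR1 was 2.07, 2.09, 2.33, 1.97, 2.41 and 2.41, all past the threshold. Scaling to the 75th percentile turned the helveticoside slope of EGR3 to −0.161 and shifted all genes, whose median became −0.20, −0.21 and −0.36 with EEDS from the lowest to the top dose and 0.14, −0.12 and −0.18 with helveticoside on the log2 scale. Leaving out 1 array at a time gave 0 to 3 called members with EEDS and 0 to 1 with helveticoside. Called rises over all 19056 genes ranged from 0 to 1262 with EEDS and from 0 to 732 with helveticoside. The EEDS slopes then ranged from 1.92 to 4.49 for EGR1, 0.613 to 3.83 for EGR2, 0.928 to 2.4 for EGR4, 0.255 to 1.37 for NAB2, −0.0283 to 0.292 for NAB1 and −0.000248 to 1.77 for EGR3, and the helveticoside slopes from 1.56 to 2.82 for EGR1, 0.232 to 0.783 for NAB2, −0.193 to 0.0787 for NAB1, −0.754 to 2.03 for EGR2, −0.00217 to 0.00458 for EGR3 and −0.000562 to 0.914 for EGR4. The sign changes came without the control for NAB1 and without the top dose for EGR2, EGR3 and EGR4. Members more than 2-fold higher at 1.25 µg/mL EEDS, 0 in the values reported, were 1 with quantile normalization within each series, with the deposited values and against the control of the other series. At 5 µg/mL they were 1 in place of 2 with the signal as scanned, normexp, the 75th percentile, the deposited values and the other control, and at 3.75 nM helveticoside 2 in place of 1 with the other control. At 20 µg/mL EEDS they were 6 in place of 5 with the 75th percentile and 4 with the other control, and at 60 nM helveticoside 2 in place of 3 with the deposited values. Quantile normalization within each series, the mean of all probes, keeping outlier spots, no filter, and limma without trend or robust estimation changed no call of a slope. The causes were not tested. No paired analysis was possible because each group has 1 array. Spots at background, those of EGR2, EGR3 and EGR4 on most arrays, limit what the fit can show for these genes.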
